A study of Mus musculus with 9 samples.

Results

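Mouse genes of the peroxisome, 43 in all, were followed in liver after a high-fat diet (HFD): the assembly factors of the organelle (peroxins), the transporters and small proteins of its membrane, and the enzymes of its interior, the matrix. The rule takes members by name and uses no measured values, though the members were chosen with earlier results of these data known. All 43 had at least 1 probe set paired with a single gene symbol, out of 17514 genes tested. They comprise 13 peroxins, 5 membrane transporters and membrane proteins, and 25 matrix enzymes. The tissue was liver of c57Bl/6 mice, profiled as total RNA on Affymetrix GeneChip arrays, with 5 arrays from mice on the HFD, with a fat content of 21% and 42% of calories as fat, and 4 arrays from mice labelled control. All mice received chow until the study began, per the labels, which give no further composition of the control diet and no sex, age or time on diet. Whether the arrays come from separate animals is not labelled, and the p-values therefore rest on array-to-array spread alone, which may be technical. The tissue was assayed in bulk, so that fewer cells of a type and less RNA per cell cannot be told apart.

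Peroxisomes are single-membrane organelles, abundant in hepatocytes, that shorten very long and branched fatty acids and make hydrogen peroxide, which catalase removes. Their matrix enzymes are made in the cytosol and carried in by the receptors Pex5 and Pex7, which dock at the membrane, release their cargo and are recycled by other peroxins. In rodent liver the nuclear receptor PPARalpha raises many genes of peroxisomal fatty acid oxidation and of peroxisome division.

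Each value below is given on the log2 scale relative to the median of its own probe set, as centred by the authors, so that levels of different genes cannot be compared. Differences are HFD minus control in log2 units, given with the fitted standard error, and a gene passed when its Benjamini-Hochberg adjusted p over all 17514 genes in limma was below 0.05. A gene with several probe sets is represented by its most variable probe set across the 9 arrays.

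Of the 43 genes 7 passed, 5 higher and 2 lower in HFD, against 5.24% of all genes tested (3.37% higher and 1.87% lower). Higher were Decr2, Pex11g, Crat, Acaa1a and Acaa1b, and lower were Hacl1 and Nudt7. An unadjusted p below 0.05 was found for 9 members higher and 4 lower, against 10.3% and 8.78% of all genes. In 7 genes every HFD array lay above every control array, and in 2 every HFD array lay below, against 5.62% and 4.20% of all genes. A positive difference was seen in 28 of 43 members, against 46.2% of all genes, and the median difference was 0.082, against -0.016 over all genes. The count of 7 depended on single arrays, as did the count over all genes. Leaving out control replicate 2 gave 2 members, and leaving out control replicate 3 also gave 2, when 2.20% and 2.71% of all genes passed. The count was 3 without HFD replicate 3 and 4 without control replicate 4, when 2.71% and 3.24% of all genes passed. Decr2 and Pex11g passed without any 1 array.

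**Figure D1:**
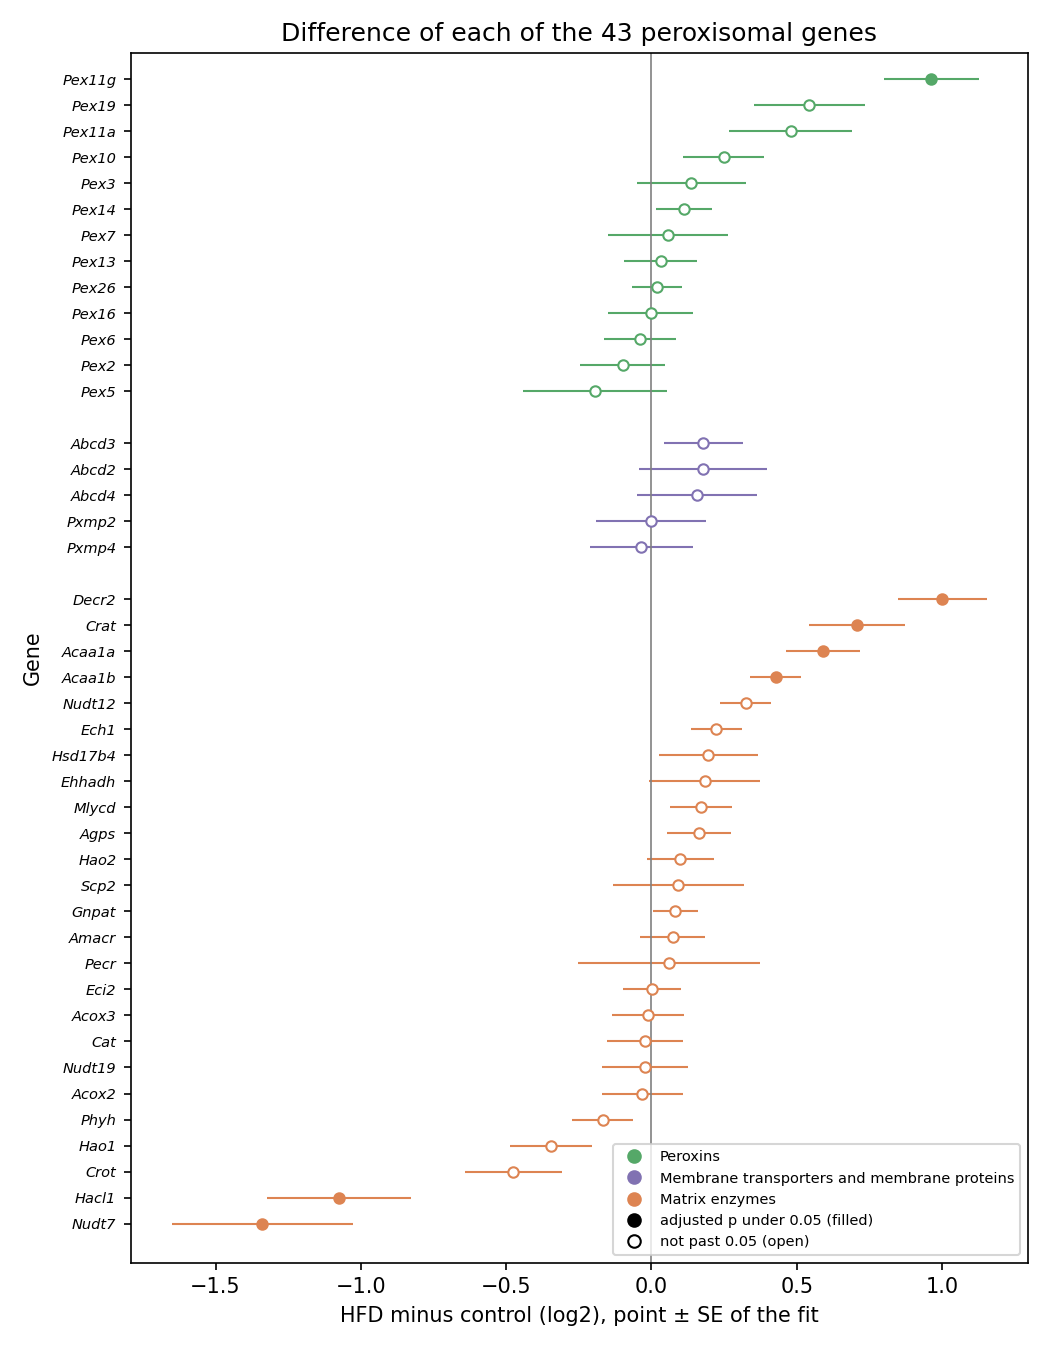
HFD minus control difference (log2, horizontal axis) of each of the 43 genes, as a point with the standard error of the fit, grouped into peroxins, membrane transporters and membrane proteins, and matrix enzymes. Filled points passed (adjusted p below 0.05); they lie at both ends of the matrix enzymes, from -1.34 (Nudt7) to 1.00 (Decr2), and at Pex11g alone among the peroxins.

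The promoters of the strongest risers and of both fallers are shown here because these genes carry the result, and because members that shifted together can be read side by side. RefSeq windows on GRCm38.p6, from 250 bases before to 50 after the annotated start, matched 34 of the 43 members and 6 of the 7 that passed. Each sequence is given 5′ to 3′ on the strand of its gene, and capitals mark matches on either strand to AGGTCA (the half-site that nuclear receptors bind), GGGCGG (the GC box) or CCAAT. Decr2 is at chr17:26090115-26090414 on the minus strand, Pex11g at chr8:3467599-3467898 on the minus strand, Hacl1 at chr14:31640916-31641215 on the minus strand, and Nudt7 at chr8:114133368-114133667 on the plus strand, the last being 1 of 2 overlapping Nudt7 windows.
Decr2: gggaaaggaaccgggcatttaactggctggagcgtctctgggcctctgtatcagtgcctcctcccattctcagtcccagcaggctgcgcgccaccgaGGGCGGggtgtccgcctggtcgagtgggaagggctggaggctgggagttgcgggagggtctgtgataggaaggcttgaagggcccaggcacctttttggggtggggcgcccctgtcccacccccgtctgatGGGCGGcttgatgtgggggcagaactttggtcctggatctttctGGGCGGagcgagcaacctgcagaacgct
Pex11g: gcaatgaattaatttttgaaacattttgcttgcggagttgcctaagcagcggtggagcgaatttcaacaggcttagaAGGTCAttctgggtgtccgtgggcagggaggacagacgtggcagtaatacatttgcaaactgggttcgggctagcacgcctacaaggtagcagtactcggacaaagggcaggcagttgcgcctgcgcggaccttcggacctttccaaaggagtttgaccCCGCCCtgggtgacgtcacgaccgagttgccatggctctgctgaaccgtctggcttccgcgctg
Hacl1: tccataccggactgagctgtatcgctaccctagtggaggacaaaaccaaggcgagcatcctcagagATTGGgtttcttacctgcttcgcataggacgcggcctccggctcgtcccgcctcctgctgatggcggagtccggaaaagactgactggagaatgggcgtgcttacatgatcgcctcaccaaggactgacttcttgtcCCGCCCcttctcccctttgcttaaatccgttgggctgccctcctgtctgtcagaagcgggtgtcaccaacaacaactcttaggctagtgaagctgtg
Nudt7: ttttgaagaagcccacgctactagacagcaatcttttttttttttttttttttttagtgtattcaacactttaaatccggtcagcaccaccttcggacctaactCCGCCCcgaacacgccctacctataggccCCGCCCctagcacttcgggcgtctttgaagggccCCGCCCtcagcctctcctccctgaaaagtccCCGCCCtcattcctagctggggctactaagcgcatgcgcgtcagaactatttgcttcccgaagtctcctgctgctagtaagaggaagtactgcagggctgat

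GC boxes stand in all 4 of these windows, 4 of them in that of Nudt7 and 3 in that of Decr2. Of the members that passed but are not shown, Acaa1a also held GC boxes and Acaa1b held none. A GC box thus occurred in 5 of the 6 members that passed and had a window, against 24 of all 34 members with a window. Over the 40 member windows 26 held a GC box (65%), against 35.7% of all 32851 RefSeq promoter windows, which include noncoding genes. CCAAT was present in 16 of the 40 member windows and 37.4% of all windows. The half-site AGGTCA occurred in 4 member windows, against 16.3% of all windows, and Pex11g was the only one of the 6 with a window that passed and held it, at -173 to -168 from the start. A direct repeat of AGGNCA with 1 base between the copies, the form bound by PPARalpha with its partner RXR, matched 0 of the 40 member windows and 0.381% of all windows. A match to the repeat can also contain AGGTCA. These counts describe the letters of short windows only.

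Among the import receptors, Pex5, which binds enzymes with the C-terminal targeting signal, stood at 0.22, 0.32, -0.38, 0.23 and -0.99 in HFD replicates 1 to 5 and at 0.34, 0.031, -0.040 and -0.031 in control replicates 1 to 4. HFD replicate 5 was the lowest of the 9 arrays, the groups overlapped, and the difference was -0.19 ± 0.25 (adjusted p = 0.736). Pex7, the receptor for the N-terminal signal that directs thiolase, Phyh and Agps, differed by 0.057 ± 0.21, again with HFD replicate 5 lowest, at -0.72. The second probe set of Pex5 differed by 0.13 ± 0.091, and in it HFD replicate 5, at -0.084, lay among the controls. Neither import receptor passed.

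The docking proteins Pex13 (0.032 ± 0.13) and Pex14 (0.11 ± 0.097), which receive loaded receptors at the membrane, did not pass. Nor did Pex2 (-0.10 ± 0.15) and Pex10 (0.25 ± 0.14), the RING proteins that ubiquitinate the receptor for recycling. Pex6, an ATPase that pulls the receptor back to the cytosol, differed by -0.040 ± 0.12, and Pex26, its membrane anchor, by 0.019 ± 0.085. The 95% interval of Pex26, -0.17 to 0.21, was the narrowest of the peroxins, whereas that of Pex5 ran from -0.74 to 0.36.

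Of the factors that insert membrane proteins, Pex3, the membrane anchor, differed by 0.14 ± 0.19 and Pex16 by -0.0029 ± 0.15. The second probe set of Pex16 differed by 0.26 ± 0.083 with the groups apart, and did not pass over all probe sets (adjusted p = 0.123). Pex19, the soluble chaperone of newly made membrane proteins, stood at 0.00024, 0.18, 0.56, 0.093 and 0.96 in HFD replicates 1 to 5 and at -0.38, -0.00024, -0.025 and -0.33 in control replicates 1 to 4. All HFD arrays lay above all control arrays, though HFD replicate 1 and control replicate 2 nearly met, and the difference of 0.54 ± 0.19 did not pass (adjusted p = 0.144). Its 3 probe sets disagreed in size, at 0.54, 0.32 and 0.0030. With the probe sets averaged the difference was 0.29 and passed (adjusted p = 0.0268).

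Of the division factors, Pex11g had the largest difference among the peroxins. Pex11g (Pex11gamma), a membrane-shaping protein of peroxisome division, stood at 0.91, 0.52, 0.98, 0.15 and 0.81 in HFD replicates 1 to 5, against -0.47, -0.35, -0.19 and -0.15 in control replicates 1 to 4. Every HFD array was higher than every control array, and HFD replicate 4 was the closest to the controls. The difference was 0.96 ± 0.16, a 1.95-fold rise (adjusted p = 0.00916). Of its 3 probe sets, 2 passed with differences of 0.96 and 0.55, and the other, at 0.33, did not. With the 3 averaged the rise was 0.61 (adjusted p = 0.00161).

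Pex11a, the relative of Pex11g that is known as a PPARalpha target in rodents, stood at 0.066, -0.14, 0.84, 0.19 and 0.91 in HFD replicates 1 to 5 and at -0.14, -0.27, 0.043 and -0.043 in control replicates 1 to 4. HFD replicates 3 and 5 were high, and the other HFD arrays, from -0.14 to 0.19, overlapped the controls. The gene did not pass, with 0.48 ± 0.21 (adjusted p = 0.251), and the second probe set of the gene gave a like value, 0.49.

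Among the 5 membrane transporters and membrane proteins none passed in limma, against 5.24% of all genes, and none had an unadjusted p below 0.05. Abcd3, the ABC half-transporter that brings branched acyl-CoA and bile acid precursors into liver peroxisomes, differed by 0.18 ± 0.13, and its second probe set by -0.13. Abcd2, which carries very long and polyunsaturated acyl-CoA, differed by 0.18 ± 0.22, and its other probe sets by -0.023, -0.0037 and 0.053. Abcd4, a relative that acts in lysosomal vitamin B12 export and not in peroxisomes, differed by 0.16 ± 0.21, and by -0.030 without HFD replicate 5, which alone was high. Pxmp2, a channel for small solutes, differed by -0.0020 ± 0.19 and Pxmp4, a membrane protein of less known role, by -0.035 ± 0.18. The 95% intervals of these 5 genes reached from at lowest -0.43 (Pxmp4) to at highest 0.66 (Abcd2).

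The matrix enzymes held 6 of the 7 genes that passed, 4 higher and 2 lower of 25, against 3.37% and 1.87% of all genes. Acaa1a and Acaa1b, the peroxisomal thiolases that split off acetyl-CoA in the last step of beta-oxidation, both rose. Acaa1a stood at 0.069, -0.040, 0.040, 0.15 and 0.56 in HFD replicates 1 to 5, against -0.35, -0.62, -0.45 and -0.32 in control replicates 1 to 4, and Acaa1b stood at 0.034, 0.040, 0.15, 0.10 and 0.041 in HFD, against -0.27, -0.41, -0.54 and -0.20 in control. The groups did not overlap in either gene, and the HFD arrays of Acaa1b were close together (SD 0.051, n = 5, against 0.15, n = 4, in control). The rise was 0.59 ± 0.13 for Acaa1a (adjusted p = 0.0250) and 0.43 ± 0.087 for Acaa1b (adjusted p = 0.0210). Both probe sets of Acaa1a bear names ending in _x_at, which marks probes that can bind related transcripts, so that signal of these paralogs may be shared. Acaa1a lost its call without control replicate 2 (adjusted p = 0.0884) or control replicate 3 (adjusted p = 0.0730), and Acaa1b without HFD replicate 3 (adjusted p = 0.0544), control replicate 2 (adjusted p = 0.0731) or control replicate 3 (adjusted p = 0.0630).

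The other enzymes of the beta-oxidation core did not pass. Ehhadh, the bifunctional hydratase and dehydrogenase of straight chains and a PPARalpha target in rodents, differed by 0.18 ± 0.19, with HFD replicates 1, 2 and 4 at 0.42, 0.31 and 0.61 and HFD replicate 5 at -0.46. Hsd17b4, the bifunctional enzyme of branched chains, also had HFD replicate 5 lowest, at -0.47, and the other HFD arrays between 0.055 and 0.41 (difference 0.20 ± 0.17). In both genes 4 of 5 HFD arrays lay above the median of the controls and 1 lay below every control array. The second probe set of Hsd17b4 differed by 0.29 ± 0.11 and did not pass. In it HFD replicate 5, at 0.039, lay above every control array, and HFD replicate 3 was the lowest HFD array. The acyl-CoA oxidases of branched chains, Acox2 (-0.032 ± 0.14) and Acox3 (-0.012 ± 0.12), and Scp2, which encodes a thiolase and a sterol carrier protein (0.093 ± 0.22), differed by less than their standard errors.

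Decr2, the peroxisomal reductase that prepares polyunsaturated acyl-CoA for beta-oxidation, showed the largest rise of all 43 genes. It stood at 0.78, 0.83, 0.65, 0.96 and 0.16 in HFD replicates 1 to 5, against -0.16, -0.37, -0.26 and -0.50 in control replicates 1 to 4. The groups did not overlap, and HFD replicate 5 was the HFD array nearest to the controls. The difference was 1.00 ± 0.15 (adjusted p = 0.00560), and without HFD replicate 5 it was 1.13. Of the other auxiliary enzymes for double bonds, Ech1, a dienoyl-CoA isomerase, differed by 0.22 ± 0.087, with all HFD arrays above all control arrays, and did not pass (adjusted p = 0.186). Eci2, an enoyl-CoA isomerase, differed by 0.0018 ± 0.099, and Pecr, a trans-enoyl-CoA reductase, by 0.060 ± 0.31, the largest standard error of the 43 genes. That spread belongs to the chosen probe set of Pecr, and its second probe set differed by -0.025 ± 0.15.

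Hacl1, the lyase that cuts phytanic acid derivatives in alpha-oxidation, fell. It stood at 0.10, -0.10, -0.80, -0.24 and -1.25 in HFD replicates 1 to 5, against 0.69, 0.81, 0.42 and 0.55 in control replicates 1 to 4. Every HFD array was below every control array, with HFD replicates 3 and 5 lowest. The difference was -1.08 ± 0.25, 2.11-fold lower in HFD (adjusted p = 0.0329). Phyh, the hydroxylase of the preceding step, differed by -0.17 ± 0.11, and Amacr, the racemase that makes branched chains fit for beta-oxidation, by 0.073 ± 0.11. Neither passed.

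Nudt7, a hydrolase that degrades coenzyme A and acyl-CoA inside peroxisomes, had the largest difference of all members. It stood at -0.0014, 0.0014, -1.10, -0.47 and -1.62 in HFD replicates 1 to 5, against 0.79, 0.95, 0.68 and 0.38 in control replicates 1 to 4. The groups did not overlap, and again HFD replicates 3 and 5 were lowest. The difference was -1.34 ± 0.31, 2.53-fold lower in HFD (adjusted p = 0.0357). All 4 probe sets of Nudt7 passed and were lower, with differences of -1.34, -1.001, -0.82 and -0.46, and the groups were apart in each. In the probe set with the difference of -0.82, HFD replicate 5 was the highest HFD array at -0.13, whereas it was the lowest in the probe set that stands for the gene. With the 4 averaged the difference was -0.91 (adjusted p = 0.00411).

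Hacl1 and Nudt7 lost their calls in the same settings, without HFD replicate 3 or any 1 control array. In those settings the difference lay between -1.14 and -0.99 for Hacl1 (highest adjusted p = 0.107) and between -1.44 and -1.22 for Nudt7 (highest adjusted p = 0.113), and both kept an unadjusted p below 0.05. The other nucleotide hydrolases did not pass. Nudt12, an NADH and NAD-cap hydrolase, stood at 0.25, 0.0020, 0.22, -0.0020 and 0.23 in HFD replicates 1 to 5, against -0.21, -0.25, -0.10 and -0.18 in control replicates 1 to 4, without overlap. Its difference of 0.32 ± 0.087 did not pass (adjusted p = 0.0613), but did without HFD replicate 4 (adjusted p = 0.0468) and where probe sets of every gene were averaged (adjusted p = 0.0335). Nudt19, another coenzyme A hydrolase, differed by -0.023 ± 0.15, and its second probe set by 0.26 ± 0.085, which did not pass.

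The carnitine acyltransferases, which hand shortened acyl groups on for export to mitochondria, had differences of opposite sign. Crat, for acetyl and other short groups, stood at 0.11, -0.0048, 0.59, 0.56 and 0.30 in HFD replicates 1 to 5, against 0.0048, -0.46, -0.71 and -0.41 in control replicates 1 to 4. Control replicate 1 lay between HFD replicates 2 and 1, so that the groups overlapped, and the rise was 0.71 ± 0.17 (adjusted p = 0.0366). The other 2 probe sets of Crat gave 0.27 and 0.16 and did not pass. The call was lost without HFD replicate 3, 4 or 5 and without control replicate 2, 3 or 4 (adjusted p from 0.0554 to 0.110). Crot, for medium-chain groups, stood at 0.070, -0.063, -0.55, -0.20 and -0.81 in HFD replicates 1 to 5 and at 0.063, 0.23, 0.27 and 0.093 in control replicates 1 to 4, and its difference was -0.47 ± 0.17 (not passed, adjusted p = 0.146). HFD replicates 3 and 5 were its lowest arrays, and HFD replicate 1 lay among the controls. The second probe set of Crot differed by only -0.019 ± 0.13, and with its probe sets averaged the difference was -0.25 (adjusted p = 0.388).

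**Figure D2:**
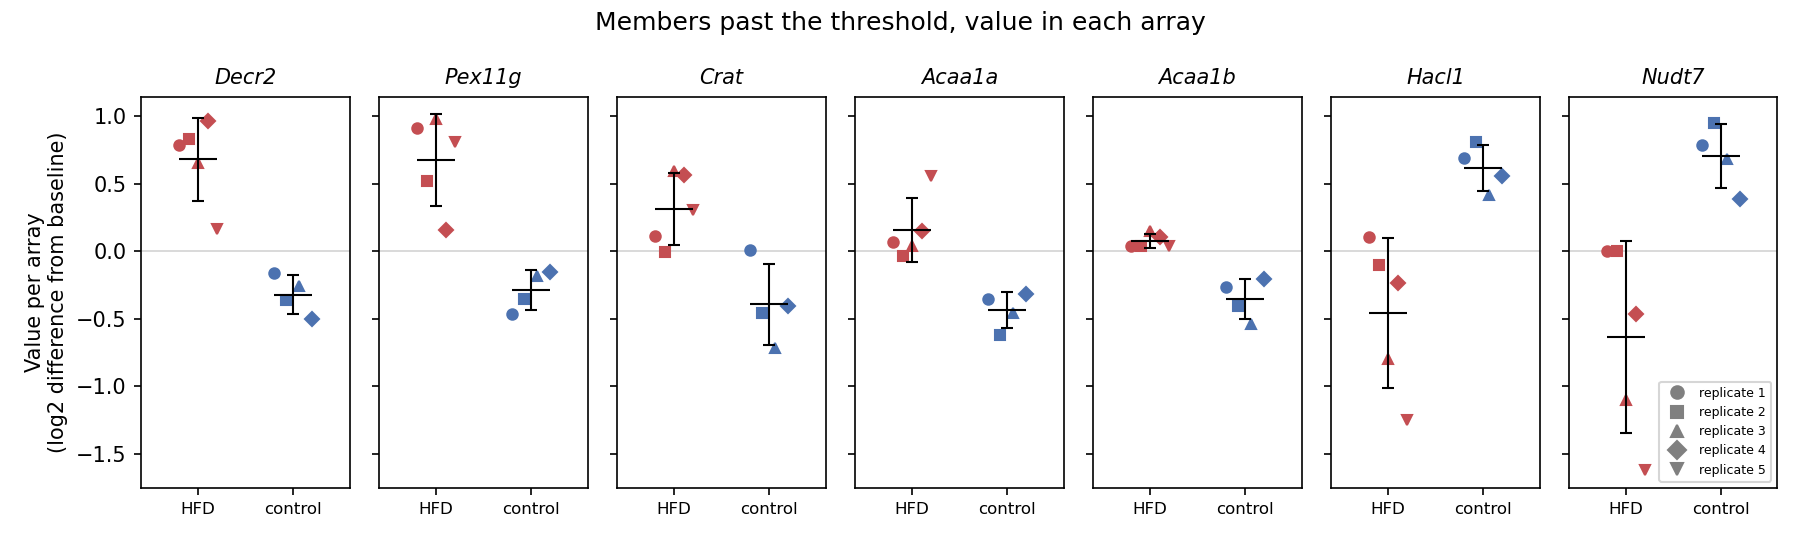
Value in each array (log2, relative to the probe set median, vertical axis) of the 7 genes that passed, with 5 HFD arrays left of 4 control arrays. Symbols mark replicates, and black lines the mean ± SD; HFD replicate 5 is the lowest HFD array in Decr2, Hacl1 and Nudt7 and the highest in Acaa1a, and only Crat shows overlap of the groups.

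The remaining matrix enzymes did not pass. Hao1, the liver glycolate oxidase, stood at 0.032, 0.026, -0.49, -0.27 and -0.62 in HFD replicates 1 to 5 and at 0.097, 0.10, 0.15 and -0.026 in control replicates 1 to 4, with a difference of -0.35 ± 0.14 (adjusted p = 0.209). HFD replicates 3, 4 and 5 were below every control array and HFD replicates 1 and 2 among them. Hao2, its relative for longer hydroxy acids, differed by 0.10 ± 0.12. Cat, the catalase that breaks down hydrogen peroxide, differed by -0.023 ± 0.13, and its second probe set by 0.24 with the groups apart, which did not pass. Gnpat and Agps, which make the first steps of ether lipid synthesis, differed by 0.082 ± 0.078 and 0.16 ± 0.11, and Mlycd, the malonyl-CoA decarboxylase, by 0.17 ± 0.11. Further probe sets of Agps gave 0.26, with the groups apart, and 0.13, and none passed.

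The 80 probe sets of the 43 genes allowed a further look at the calls of genes with several probe sets. Decr2, Acaa1b and Hacl1 have 1 probe set each, so that their calls had no such look. In 24 genes with several probe sets, 13 had all probe sets of 1 sign and 11 had both signs. Tested one by one over all 32801 named probe sets, 6 probe sets of members were higher and 5 lower, against 2.53% and 1.47% of all named probe sets. They belonged to the same 7 genes and included the probe set that stands for each, so that this match was largely fixed beforehand. Further probe sets passed only in Pex11g and Nudt7. The probe set that stands for a gene was chosen for its spread, which favours larger differences, and in all 4 genes that passed and had several probe sets (Acaa1a, Crat, Pex11g and Nudt7) the average over probe sets was smaller in size than the value of the chosen one.

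**Figure D3:**
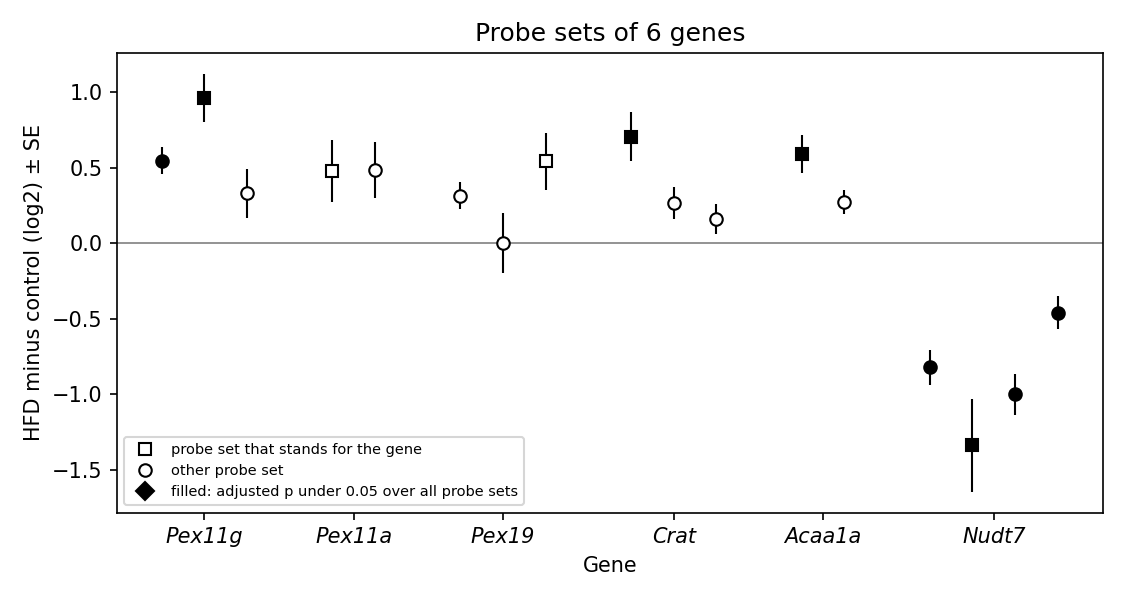
HFD minus control difference (log2, vertical axis) ± standard error of every probe set of 6 genes; squares are the probe sets that stand for the gene, filled symbols passed over all probe sets. The 4 probe sets of Nudt7 are all filled and lie between -1.34 and -0.46, whereas those of Pex19 spread from 0.0030 to 0.54.

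Set side by side, the classes differed in how many members passed. Of the peroxins 1 of 13 passed (7.69%), of the membrane proteins 0 of 5, and of the matrix enzymes 6 of 25 (24.0%), against 5.24% of all genes. These counts rested on single arrays: without control replicate 2, and also without control replicate 3, 1 peroxin (Pex11g) and 1 matrix enzyme (Decr2) passed. In these settings 2.20% and 2.71% of all genes passed. The median difference was 0.057 in peroxins, 0.16 in membrane transporters and membrane proteins and 0.082 in matrix enzymes, against -0.016 over all genes. The value of 0.16 was that of Abcd4, which acts outside peroxisomes and differed by -0.030 without HFD replicate 5. Leaving out 1 array gave medians of 0.054 to 0.17 for that class. The order of the medians depended on the probe sets: with those of a gene averaged, the medians were 0.11 in peroxins, 0.023 in membrane transporters and membrane proteins and 0.10 in matrix enzymes. The median size of the difference without regard to sign was 0.11, 0.16 and 0.17 in that order, against 0.12 over all genes. No test was made of these contrasts, since the members were chosen by name with earlier results known.

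The mean over the 13 peroxins was 0.13 ± 0.051 (SD, n = 5) in HFD and -0.040 ± 0.023 (SD, n = 4) in control, without overlap between the diets. The mean over the 25 matrix enzymes was 0.020 ± 0.12 (SD, n = 5) in HFD and -0.017 ± 0.047 (SD, n = 4) in control, and HFD replicates 3 and 5, at -0.080 and -0.13, lay below every control array. The mean over the 5 membrane proteins was 0.081 ± 0.073 (SD, n = 5) in HFD and -0.014 ± 0.046 (SD, n = 4) in control, with overlap. The difference between the diets was 0.17 for the peroxin mean and 0.036 for the matrix enzyme mean. In the peroxins it came mostly from Pex11g (0.96), Pex19 (0.54) and Pex11a (0.48), while the other 10 peroxins differed by -0.19 to 0.25. The median over the 13 peroxins, which single genes move less, did overlap between the diets. HFD replicate 3, at -0.0082, lay below control replicates 1 (0.0023) and 2 (-0.0023), and the other HFD arrays, at 0.085 to 0.18, lay above every control array.

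**Figure D4:**
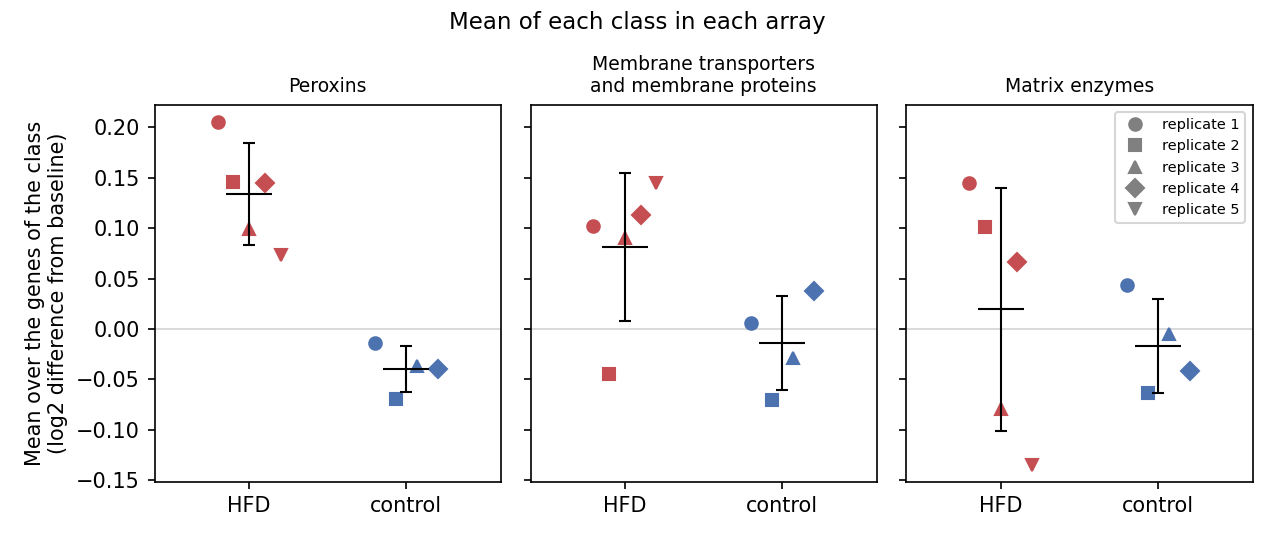
Mean over the genes of each class in each array (log2 difference from baseline, vertical axis), 5 HFD arrays left of 4 control arrays; black lines give the mean ± SD of the arrays. The peroxin means of HFD (0.073 to 0.21) lie above those of control (-0.070 to -0.014), and the matrix enzyme means of HFD spread from -0.13 to 0.14.

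The spread among HFD arrays was larger than among control arrays in 34 of 43 members (79.1%), against 65.1% of all genes, with a median SD of 0.27 in HFD and 0.14 in control. HFD replicate 5 was the lowest HFD array in 17 members (39.5%) and the highest in 10 (23.3%), against 28.6% and 24.1% of all genes. It had the largest SD over genes, 0.398, against 0.245 to 0.313 in the other 8 arrays. Without it, 4 members were higher and 2 lower, when 4.62% of all genes passed, and Crat alone lost its call (adjusted p = 0.0554).

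Other genes of the organelle were taken from a list of 39, of which 31 were measured. Of these 3 rose and 1 fell, against 3.37% and 1.87% of all genes, with a median difference of 0.047. Gstk1, a glutathione transferase of peroxisomes and mitochondria, rose by 0.75 ± 0.087, Mpv17, a relative of Pxmp2 that is now placed in the mitochondrial inner membrane, by 0.55 ± 0.081, and Slc27a2, which activates very long fatty acids, by 0.41 ± 0.084. Agxt, the glyoxylate aminotransferase that disposes of the product of Hao1, fell by 0.59 ± 0.14. Of 22 measured genes on a list of PPARalpha and its targets outside the peroxisome, 6 rose and 0 fell in limma, against the same shares of all genes, with a median difference of 0.23. At an unadjusted p below 0.05 in limma 8 were higher and 1 was lower, against 10.3% and 8.78% of all genes. The 6 that rose were Vnn1 (1.83 ± 0.25), Ppara itself (1.34 ± 0.27), Aldh3a2 (1.13 ± 0.15), Acot2 (0.81 ± 0.19), Plin2 (0.58 ± 0.13) and Slc25a20 (0.42 ± 0.075). The other 16 did not pass. Among them Angptl4 (-0.71 ± 0.35), Acot1 (-0.42 ± 0.23) and Cyp4a12a (-0.36 ± 0.11, groups apart) had negative differences. Pdk4 (1.11 ± 0.53), Cpt1a (0.40 ± 0.13) and Acadl (0.34 ± 0.099) had positive ones. A positive difference was seen in 15 of the 22, against 46.2% of all genes.

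Markers of other liver cells moved between the same arrays. Over all genes 3.37% rose and 1.87% fell. Of 10 Kupffer cell (resident macrophage) markers 7 fell and none rose, with list means from -1.17 to 0.043 in HFD and from 0.13 to 1.28 in control. Of 10 endothelial markers 3 fell and none rose, with list means from -1.21 to 0.23 in HFD and from 0.16 to 0.70 in control, and HFD replicate 5 was the lowest array of both lists. Of 10 stellate cell markers 2 rose and 1 fell, of 7 neutrophil markers 1 fell, of 6 adipocyte markers 1 rose, and 0 of 7 lymphocyte and 0 of 5 biliary markers passed in limma (1 and 0 at an unadjusted p below 0.05). Lower at an unadjusted p below 0.05 were 10 Kupffer cell, 9 endothelial, 4 neutrophil and 2 stellate cell markers, against 8.78% of all genes. Higher at that level were 2 stellate cell and 2 adipocyte markers, against 10.3% of all genes. Of 9 hepatocyte markers Hnf4a alone passed, falling by 0.91 ± 0.19. At an unadjusted p below 0.05, 4 of the 9 were lower, which besides Hnf4a were Pck1 (-1.41 ± 0.46), Tat (-0.79 ± 0.22) and Cps1 (-0.26 ± 0.11), and 0 were higher. Alb, the albumin gene, differed by -0.055 ± 0.071. Centring removes levels, so that the presence of a marker cannot be read from these values. The part of these shifts in the differences of the peroxisomal genes was not tested.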

How the data were processed

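The deposited log2 values were made by the authors with RMA summarisation, quantile normalization and centring of each probe set on its median over the samples, per the design text of the series. RMA's version and the log base are not given in the sources used here, and log2 was assumed as RMA's usual scale. The middle values of 92.8% of probe sets mirrored each other around 0 (within 1e-05), the pattern of a median over 10 arrays, and 9 arrays were analysed here. Scanner data were not used here, and a filter on low signal could not be applied to centred values.

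Of 41842 probe sets 60 control probe sets were left out, and the platform annotation gave 32801 of them 1 gene symbol each, while 862 had several and 8119 had no symbol. HFD (5 arrays) was compared with control (4 arrays) in limma 3.58.1 under R 4.3.3 (lmFit and eBayes, two-sided, no covariate, Benjamini-Hochberg over 17514 genes). Arrays were grouped by the diet label and numbered in deposition order, which pairs none. The fit was tested on simulated data. The number of arrays limits the precision, and no batch is labelled.

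Members and lists were chosen with earlier results of these data known. All 43 members are reported, with values per array for those that passed and for the 5 others with the largest differences. Pex5 was given in full in addition, after its values were seen. Of the lists of other peroxisomal genes and of PPARalpha targets, genes that passed are named. Some listed genes that did not pass are named as well, chosen after their values were seen. Cell type marker lists covered hepatocytes, Kupffer, endothelial, stellate and biliary epithelial cells, neutrophils, lymphocytes and adipocytes. Alternatives are given in the closing section. Promoter windows and motif matches come from RefSeq sequence of GRCm38.p6.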

Additional observations from a re-analysis of the deposited data

Results flagged for a closer look

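In 4 of the 86 combinations of a gene and a diet group, 1 array stood apart from the rest of its group by Dixon's criterion, a number that chance would give at about 1 in 20. Cat in HFD replicate 5 was 0.44, with the other HFD arrays between -0.18 and -0.035. Abcd4 in HFD replicate 5 was 0.91, with the other HFD arrays between -0.17 and 0.098. Pex14 in control replicate 4 was 0.093, with the other controls between -0.013 and 0.0021. Hsd17b4 in control replicate 3 was -0.21, with the other controls between -0.018 and 0.017. None of these 4 genes passed.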

How the results depend on the processing

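The 7 genes that passed kept their direction under all alternatives run, and Decr2 and Pex11g also kept their calls (Decr2 between 0.93 and 1.18, Pex11g between 0.61 and 1.09). Leaving out 1 array gave 2 to 7 members past the threshold, when 2.20% to 5.69% of all genes passed. Of the members 2 to 5 were higher and 0 to 2 lower, with 1 to 4 matrix enzymes higher. Class medians were 0.028 to 0.11 for peroxins, 0.054 to 0.17 for membrane transporters and 0.043 to 0.11 for matrix enzymes. The lower count was 0 in limma without HFD replicate 3, without any 1 control array, and with both HFD replicate 5 and control replicate 1 left out, while Hacl1 and Nudt7 kept an unadjusted p below 0.05 in each. In that last setting the peroxin median was 0.11, Hacl1 was -0.85 (adjusted p = 0.0530) and Nudt7 -1.06 (adjusted p = 0.0628). Fewer arrays also lowered the count over all genes, except without HFD replicate 4, when 5.69% passed against 5.24% with all arrays. Averaging probe sets made 2 peroxins higher (Pex19 in addition), with medians of 0.11 for peroxins and 0.023 for membrane transporters. It made 7 members higher in all and 2 lower, when 5.17% of all genes passed in either direction. Tested one by one, probe sets had medians of 0.13 for peroxins and 0.018 for membrane transporters. Acaa1a had no value without _x_at and _s_at probe sets. Array medians subtracted, a further quantile normalization, a filter that dropped the least variable 25% of genes, robust eBayes and array weights each kept the 5 higher and 2 lower genes. Of the 36 members that did not pass, 17 changed sign in at least 1 alternative without passing. No scaling moved the median over all genes by more than 0.0017. No paired analysis was possible because the replicate numbers come from deposition order and pair no arrays.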

Other observations

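Genes next to the members that passed were looked up in RefSeq after the values were seen. Btd, next to Hacl1, differed by 0.075 ± 0.10, Nme4, next to Decr2, by -0.11 ± 0.083, and Tex45, which overlaps Pex11g, by -0.081 ± 0.097. None of these 3 passed. Xylb, next to Acaa1a, differed by 0.64 ± 0.25 and did not pass (adjusted p = 0.182), and Myd88, on its other side, differed by 0.051 ± 0.12.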
